A study of Mus musculus with 6 samples.

Results

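The comparison described here set P301S Tau mice treated with UNC0642 against WT mice given vehicle, and asked which autosomal genes still differed from WT after the treatment. It used 4 of the 6 RNA sequencing libraries of the study, the 2 of UNC0642-treated Tau mice and the 2 of WT mice, chosen by their labels alone. All 6 libraries were made from the prefrontal cortex (PFC) of 6-month-old mice, and the other 2 came from P301S Tau mice given vehicle. P301S Tau mice (the PS19 line, on a B6C3H/F1 background) carry a transgene for human 1N4R tau with the P301S mutation, driven by the mouse prion promoter, which acts in many cell types. WT mice, labelled C57BL/6 x C3H, were littermates without the transgene. UNC0642 is an inhibitor of EHMT1 and EHMT2, which write the repressive histone mark H3K9me2, and was given by daily injection of 1 mg/kg on 3 days. WT mice and the vehicle-treated Tau mice received saline with DMSO. Because the treated mice differed from WT mice in both the transgene and the drug, these cannot be told apart in this comparison, and the values of the vehicle-treated Tau mice are given beside it.

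The counts per library summed to between 17005664 and 28972176. Reads of the transgene can be counted under Prnp, whose promoter drives it, and under Mapt, the mouse tau gene. Levels are given as CPM, counts relative to the size of the library. Prnp was at 1652 CPM in the library labelled WT replicate 1 and at 873 in WT replicate 2, against 1552 and 1470 in the vehicle-treated Tau libraries and 1548 and 1694 in the UNC0642-treated libraries. Mapt was at 576 and 449 CPM in the WT libraries, 613 and 589 in the vehicle-treated Tau libraries and 570.5 and 614 in the UNC0642-treated libraries. The library labelled WT replicate 1 was therefore at the level of the transgenic libraries for both genes, against its label. It also stood apart in several interneuron and neuropeptide genes, given at the end. Most counts below are therefore given with those found without it, or with the calls that held in its absence. Xist, the RNA of the inactive X chromosome, was at 0.197 and 317 CPM in the WT libraries and at 0.118 and 0.176 in the UNC0642-treated libraries, and the 4 Y-linked genes examined showed the opposite pattern. Both UNC0642-treated libraries and the library labelled WT replicate 1 thus had a male pattern, while WT replicate 2 and both vehicle-treated Tau libraries, with Xist at 191 and 235 CPM, had a female one. Sex pattern and treatment therefore cannot be told apart wherever UNC0642-treated and vehicle-treated Tau libraries are set side by side. A comparison without WT replicate 2 is within the male pattern but rests on the library of doubtful genotype. One without the library labelled WT replicate 1 sets males against a female. In these leave-out fits the sex pattern and the doubtful label cannot be told apart. The targets of the drug, Ehmt1 and Ehmt2, did not pass the test, with log2 differences of -0.065 ± 0.10 and -0.014 ± 0.10 (standard error, SE).

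Immediate early genes are transcribed within minutes of neuronal firing or growth factor signalling, and encode transcription factors (the Fos, Egr and Nr4a families), synaptic proteins and phosphatases that end the kinase signal. Chaperones fold proteins, in the cytosol under heat shock factors and in the endoplasmic reticulum (ER) under the unfolded protein response. Glucocorticoids, the circadian clock and thyroid hormone each act on gene sets of their own in cortex. Genes of these systems are described first.

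A gene was called when its unadjusted p-value in edgeR's quasi-likelihood test was under 0.05 and it differed by at least 1.2-fold. Of 19549 autosomal genes tested, 744 (3.81%) were called higher and 1125 (5.75%) lower in UNC0642-treated Tau than in WT mice, 1869 (9.56%) in all. Without scaling of the library sizes by the TMM method these were 517 and 1436. Without the library labelled WT replicate 1 there were 868 (4.24%) higher and 976 (4.77%) lower genes, and without WT replicate 2 there were 966 (4.69%) and 1111 (5.39%). Called in the same direction with all libraries and in each of the 4 fits that left out 1 WT or UNC0642-treated library were 258 genes that were higher (1.32%) and 197 that were lower (1.01%). These are referred to as stable calls. Benjamini-Hochberg adjustment over all genes left 42 (0.215%) with an adjusted p under 0.05. Of these, 37 were higher (0.189%) and 5 lower (0.0256%). All 42 were stable calls, but they had been chosen by p-values from the same libraries. Their number depended on single libraries and was 6 without UNC0642 replicate 2, 28 without UNC0642 replicate 1, 60 without the library labelled WT replicate 1 and 179 without WT replicate 2. The 12 protein-coding genes with the smallest p-values in each direction are described as the leading genes. The labels call the 2 libraries of a group biological duplicates, and p-values rest on the spread between them.

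**Figure D1:**
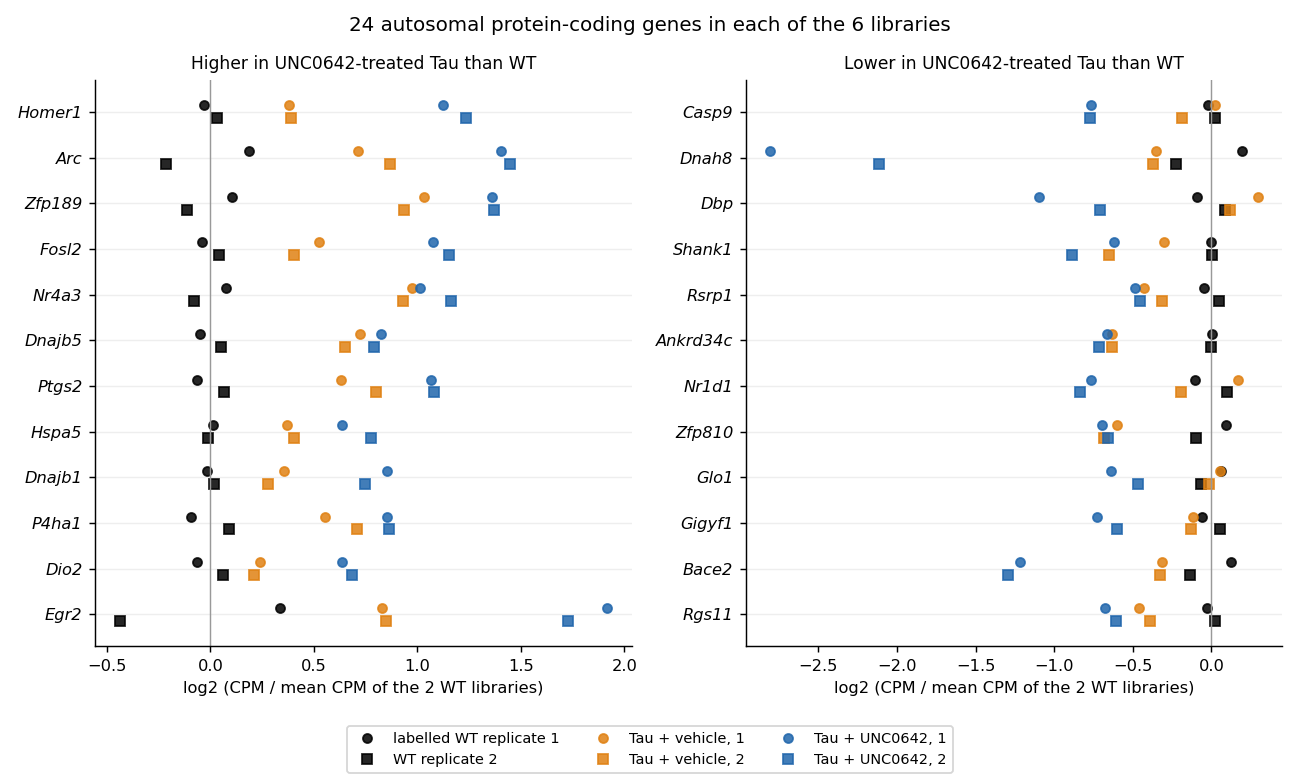
Level of the 24 autosomal protein-coding genes with the smallest p-values (12 in each direction, genes in rows) in each of the 6 libraries, as the log2 ratio of its CPM to the mean of the 2 WT libraries. Circles are replicate 1 and squares replicate 2. The UNC0642-treated libraries lie apart from both WT libraries for all 24 genes, which the choice by small p-values favours. Over all autosomal genes tested they lie above both WT libraries for 22% and below both for 22.5%. The vehicle-treated Tau libraries lie with the treated ones (Nr4a3, Zfp810), between (Homer1, Arc) or with WT (Casp9, Nr1d1).

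Of the 54 gene lists examined, immediate early genes had the largest share of genes that were higher in UNC0642-treated Tau mice. Of 37 tested, 26 were called higher, against 3.81% of all autosomal genes, and 1 lower. Their median log2 difference was 0.64, against -0.014 over all autosomal genes tested. Stable calls numbered 20 higher and 1 lower. Homer1, which encodes a postsynaptic scaffold and a short form induced by activity, was at 360.4 and 377 CPM in the WT libraries, 479 and 483 in the vehicle-treated Tau libraries and 803 and 868 in the UNC0642-treated libraries. The 3 groups did not overlap, and vehicle-treated Tau mice stood between the others. The difference from WT was 2.27-fold (log2 1.18 ± 0.075 SE, adjusted p = 3.28e-04), the smallest p-value of the comparison, and ranged from 1.12 to 1.24 with each library left out. Homer1 lies on chromosome 13 from 93299635 to 93405129 (GRCm38).

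Arc, an activity-induced regulator of AMPA receptor trafficking, was at 231 and 175 CPM in WT, 333 and 369.7 in vehicle-treated Tau and 536 and 553 in UNC0642-treated Tau libraries. Again the order was WT, vehicle and UNC0642, without overlap (2.69-fold over WT, log2 1.43 ± 0.12 SE, adjusted p = 0.00180). Egr2, a zinc finger transcription factor, had the largest fold of the 12 leading genes that were higher. It was at 9.42 and 5.51 CPM in WT, 13.3 and 13.4 in vehicle-treated Tau and 28.2 and 24.7 in UNC0642-treated libraries, a 3.54-fold difference (log2 1.82 ± 0.21 SE, adjusted p = 0.00805). The WT libraries differed among themselves for Egr2, and its log2 difference was 2.26 without the library labelled WT replicate 1 and 1.49 without WT replicate 2. Fosl2, a subunit of the AP-1 factor, was at 28.7 and 30.4 CPM in WT, 42.6 and 39.1 in vehicle-treated Tau and 62.3 and 65.7 in UNC0642-treated libraries. Ptgs2, the inducible cyclooxygenase, was at 19.9 and 21.8 CPM in WT, 32.2 and 36.2 with vehicle and 43.6 and 43.98 with UNC0642. Both followed the order of Homer1 and Arc.

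Nr4a3, Ier5 and Egr1 differed little between the vehicle and UNC0642 groups. Nr4a3, an orphan nuclear receptor, was at 22.9 and 20.6 CPM in WT, 42.7 and 41.4 in vehicle-treated Tau and 43.8 and 48.6 in UNC0642-treated libraries. Its log2 difference from WT was 1.09 ± 0.11 (SE) with UNC0642 and 0.95 ± 0.11 with vehicle, and that between UNC0642 and vehicle, 0.14 ± 0.10, was not called. Ier5, at 82.3 and 85.97 CPM in WT, 119 and 123 with vehicle and 133 and 129 with UNC0642, was of the same kind. Egr1 was at 73.6 and 80.7 CPM in WT, 145 and 116 with vehicle and 137 and 115 with UNC0642, and there the vehicle and UNC0642 libraries overlapped. Dusp6, a phosphatase of the ERK kinases, was at 76.01 and 84.5 CPM in WT, 108 and 111 with vehicle and 123 and 141 with UNC0642 (log2 0.72 ± 0.093 SE against WT, adjusted p = 0.0144). Its groups did not overlap, and the vehicle-treated libraries lay between the others.

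Bdnf, the neurotrophin, was at 28.6 and 44.9 CPM in WT, 51.9 and 53.8 with vehicle and 70.04 and 68.1 with UNC0642 (log2 0.91 ± 0.17 SE against WT, adjusted p = 0.0686), in the order of Homer1. Egr3 was at 51.9 and 59.8 CPM in WT, 70.2 and 62.01 with vehicle and 92.6 and 78.6 with UNC0642, and Nptx2, a pentraxin that gathers AMPA receptors, at 50.3 and 46.3 CPM in WT, 57.3 and 55.6 with vehicle and 74.7 and 62.99 with UNC0642. These 3 genes were called higher with UNC0642 than with vehicle as well as than in WT. The nuclear receptor genes Nr4a1 and Nr4a2 and the kinase gene Sik1 were higher than WT by log2 differences of 0.51, 0.83 and 0.64, and Spry4 and Dusp4, inhibitors of the ERK pathway, by 0.85 and 0.97. All 5 were stable calls, were also called higher than WT with vehicle, and were not called between UNC0642 and vehicle. Klf4, Egr4, Gadd45b, Junb, Spry2 and Inhba were called with all libraries, but not in every fit without 1.

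Fos and Npas4 showed how much depends on the WT library chosen. Fos was at 45.8 and 23.2 CPM in WT, 32.1 and 40.5 with vehicle and 58.5 and 61.8 with UNC0642, so that the treated libraries were above both WT libraries, but by a log2 difference of 1.38 without the library labelled WT replicate 1 and 0.40 without WT replicate 2. Npas4, at 39.2 and 17.7 CPM in WT and 27.1 and 25.4 with UNC0642, was not called, and its value changed sign between 0.56 and -0.58 in these fits. Jun did not pass the test either, at 32.6 and 32.6 CPM in WT and 34.7 and 30.2 with UNC0642. The single member called lower was Btg2, an antiproliferative gene, at 50.5 and 34.1 CPM in WT, 20.7 and 19.6 with vehicle and 29.01 and 24.7 with UNC0642 (log2 -0.66 ± 0.17 SE). For the list as a whole, 27 members were higher without the library labelled WT replicate 1 and 22 without WT replicate 2. Set beside this, vehicle-treated Tau mice had 18 of the 37 called higher than WT (3.74% of all autosomal genes in that comparison) and 2 lower (6.13%), and UNC0642-treated mice had 14 called higher than vehicle-treated ones (3.71%) and 1 lower (3.98%). These comparisons share libraries.

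**Figure D2:**
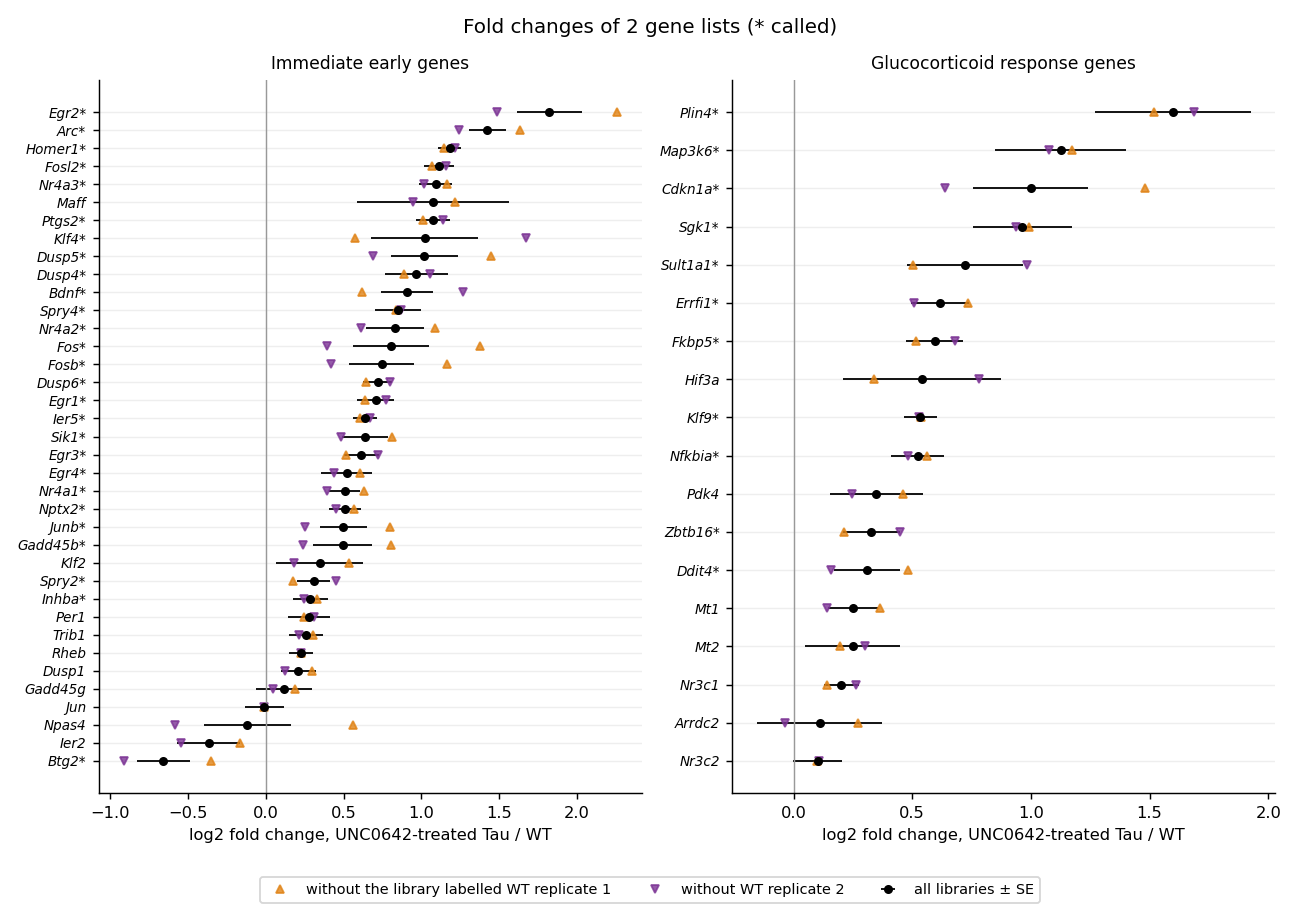
Log2 fold change of UNC0642-treated Tau over WT for each tested immediate early gene (left) and glucocorticoid response gene (right). Black points are the fit of all libraries with its SE, triangles the fits without the library labelled WT replicate 1 or without WT replicate 2, and an asterisk marks a called gene. Of the immediate early genes 26 are called to the right of 0 and 1 (Btg2) to the left, and the 2 leave-out fits fall on opposite sides of 0 for Npas4.

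The list of cytosolic heat shock chaperones also held Hsf1, Hsf2 and the mitochondrial chaperonin genes Hspd1 and Hspe1. Its median log2 difference was 0.30. Of its 26 tested genes, 14 were called higher and 0 lower, against 3.81% and 5.75% of all autosomal genes. Of these 11 were stable calls, and 15 and 13 were higher without the library labelled WT replicate 1 and without WT replicate 2. Dnajb1, a cochaperone of Hsp70, was at 49.2 and 50.3 CPM in WT, 63.6 and 60.3 with vehicle and 89.9 and 83.5 with UNC0642, a 1.74-fold difference (log2 0.80 ± 0.086 SE, adjusted p = 0.00532). Its relative Dnajb5 was at 72.3 and 77.5 CPM in WT, 124 and 118 with vehicle and 133 and 129 with UNC0642, with the vehicle-treated libraries near the UNC0642-treated ones. The inducible Hsp70 genes Hspa1a and Hspa1b are near-identical copies, so that their reads are hard to assign, and 62.3% of the 50-base words of Hspa1b are also in Hspa1a. Counted together they were at 5.09 and 6.33 CPM in WT, 7.15 and 5.90 with vehicle, and 13.6 and 14.2 with UNC0642. In these genes the vehicle-treated libraries lay with WT. Dnaja1, Dnajb4, Hsph1, Stip1 and Ahsa1, all cochaperones of Hsp70 or Hsp90, were stable calls with log2 differences from 0.32 for Stip1 to 0.42 for Dnajb4. The constitutive Hsp90ab1, at 1396 and 1398 CPM in WT and 1495 and 1563 with UNC0642, was not called. Hspa8, at 160.2 and 392 CPM in WT and 529 and 197 with UNC0642, varied by more than 2-fold between the libraries of WT and of UNC0642-treated mice and was not called either. Among the heat shock factors, Hsf1 and Hsf2 did not pass the test.

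Of 24 tested genes of ER chaperones and the unfolded protein response, 12 were called higher, 9 of them as stable calls, and 0 lower. The shares over all autosomal genes were 3.81% and 5.75%. The median log2 difference of the list was 0.30. Hspa5, the ER Hsp70 known as BiP, was at 341 and 337 CPM in WT, 438 and 448 with vehicle and 527 and 579.8 with UNC0642. Its groups did not overlap, and it differed 1.63-fold from WT (log2 0.71 ± 0.075 SE, adjusted p = 0.00532). Pdia6, a disulfide isomerase, was at 105 and 112 CPM in WT, 135 and 134 with vehicle and 155 and 163 with UNC0642 (log2 0.55 ± 0.076 SE against WT, adjusted p = 0.0225). The lectin chaperone Calr was at 317 and 334 CPM in WT, 395 and 400.0 with vehicle and 414 and 424 with UNC0642, Dnajc3 at 92.5 and 92.2 CPM in WT, 113 and 128 with vehicle and 128 and 127 with UNC0642, and Creld2 at 9.22 and 11.5 CPM in WT, 13.2 and 12.6 with vehicle and 14.1 and 15.5 with UNC0642. All these genes were higher in both UNC0642-treated libraries than in both WT libraries. The call of Creld2 was lost without the library labelled WT replicate 1 (log2 0.36). Sdf2l1, Herpud1, Pdia4, Manf and the transcription factor Xbp1 were stable calls too, while Atf4, Atf6, Ern1 and Eif2ak3, the other sensors and factors of this response, did not pass the test. In vehicle-treated Tau mice 10 of the 24 were called higher than WT, against 3.74% of all autosomal genes. With UNC0642, 1 gene, Hspa5, was called higher than with vehicle, against 3.71%.

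The ER stress element, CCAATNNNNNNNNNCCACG, is the sequence through which ATF6 and XBP1 act with NF-Y on ER chaperone genes. It was searched on both strands of the 250 bases before the start of each gene in RefSeq (GRCm38.p6). It was found in 37 of 32851 promoters (0.113%), and in 8 of the 21 tested genes of the ER list that had a promoter there. Of these 8, 5 were called higher (Hspa5, Pdia6, Calr, Dnajc3 and Creld2) and 3 were not called (Hsp90b1, Canx and Syvn1). The 13 others held 6 called genes, so that a call did not go with the element in every gene. The 5 promoters are shown because they belong to the called genes, each 5′ to 3′ on the strand of its gene and ending at the base before the start, with the element in capitals.
Hspa5, plus strand, chr2:34771840-34772089: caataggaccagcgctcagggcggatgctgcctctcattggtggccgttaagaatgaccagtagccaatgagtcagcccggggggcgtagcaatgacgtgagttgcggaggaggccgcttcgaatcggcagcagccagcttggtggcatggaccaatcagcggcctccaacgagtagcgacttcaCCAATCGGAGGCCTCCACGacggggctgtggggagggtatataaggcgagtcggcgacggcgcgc
Pdia6, plus strand, chr12:17266339-17266588: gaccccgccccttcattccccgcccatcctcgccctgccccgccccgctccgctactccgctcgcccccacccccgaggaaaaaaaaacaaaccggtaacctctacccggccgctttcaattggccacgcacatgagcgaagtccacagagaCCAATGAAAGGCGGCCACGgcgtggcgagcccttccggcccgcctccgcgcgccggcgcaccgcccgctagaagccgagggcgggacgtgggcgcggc
Calr, minus strand, chr8:84846932-84847181: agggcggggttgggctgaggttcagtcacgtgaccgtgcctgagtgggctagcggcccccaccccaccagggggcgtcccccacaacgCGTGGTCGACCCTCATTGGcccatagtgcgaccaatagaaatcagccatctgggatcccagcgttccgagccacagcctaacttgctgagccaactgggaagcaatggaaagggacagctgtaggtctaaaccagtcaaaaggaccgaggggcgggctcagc
Dnajc3, plus strand, chr14:118937682-118937931: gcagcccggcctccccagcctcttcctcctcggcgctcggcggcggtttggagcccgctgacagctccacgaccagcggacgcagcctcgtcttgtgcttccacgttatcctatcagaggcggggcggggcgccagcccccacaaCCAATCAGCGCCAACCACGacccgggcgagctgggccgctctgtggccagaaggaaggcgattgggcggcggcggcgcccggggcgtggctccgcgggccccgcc
Creld2, plus strand, chr15:88819396-88819645: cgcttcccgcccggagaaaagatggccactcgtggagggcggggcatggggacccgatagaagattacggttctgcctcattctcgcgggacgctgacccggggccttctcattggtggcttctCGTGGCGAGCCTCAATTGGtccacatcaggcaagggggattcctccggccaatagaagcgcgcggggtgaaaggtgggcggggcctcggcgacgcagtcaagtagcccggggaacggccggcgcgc
The element ends 46 bases before the start in Hspa5, 79 in Pdia6, 143 in Calr, 86 in Dnajc3 and 107 in Creld2, and in Calr and Creld2 it reads on the opposite strand.

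Other elements were rarer among the members. The heat shock element GAANNTTCNNGAA was in 0.466% of all promoters and, of 21 heat shock genes with a promoter, in Hspe1, which was called higher, and in its neighbour Hspd1, which was not. Of all 21, 13 were called higher. The serum response element (CArG box), through which the factor SRF acts on immediate early genes, was in 1.47% of all promoters. Of 28 immediate early genes with a promoter it was in 2, Egr2 and Dusp5, both called higher. Of all 28, 19 were called higher. Dusp5, a nuclear phosphatase of ERK, was at 10.6 and 6.25 CPM in WT, 16.4 and 13.8 with vehicle and 16.9 and 17.2 with UNC0642. The full cAMP response element TGACGTCA was in 1.55% of all promoters and in Btg2, Dusp1 and Maff of the same list, of which Btg2 was lower and the others were not called. Elements farther from the start were not searched. The promoters of Egr2, of whose 5 starts 4 hold a CArG box, and Dusp5, with 2 such boxes, follow with the boxes in capitals.
Egr2, plus strand, chr10:67537316-67537565: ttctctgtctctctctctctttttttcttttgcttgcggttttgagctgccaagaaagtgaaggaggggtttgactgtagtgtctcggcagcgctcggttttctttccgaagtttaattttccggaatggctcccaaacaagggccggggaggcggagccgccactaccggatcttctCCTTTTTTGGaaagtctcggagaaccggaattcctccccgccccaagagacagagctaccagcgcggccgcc
Dusp5, plus strand, chr19:53528895-53529144: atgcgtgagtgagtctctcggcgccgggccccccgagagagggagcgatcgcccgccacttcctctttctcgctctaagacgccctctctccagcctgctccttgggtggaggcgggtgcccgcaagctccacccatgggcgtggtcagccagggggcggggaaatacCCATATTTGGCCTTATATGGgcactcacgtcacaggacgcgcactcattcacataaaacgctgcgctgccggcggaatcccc

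**Figure D3:**
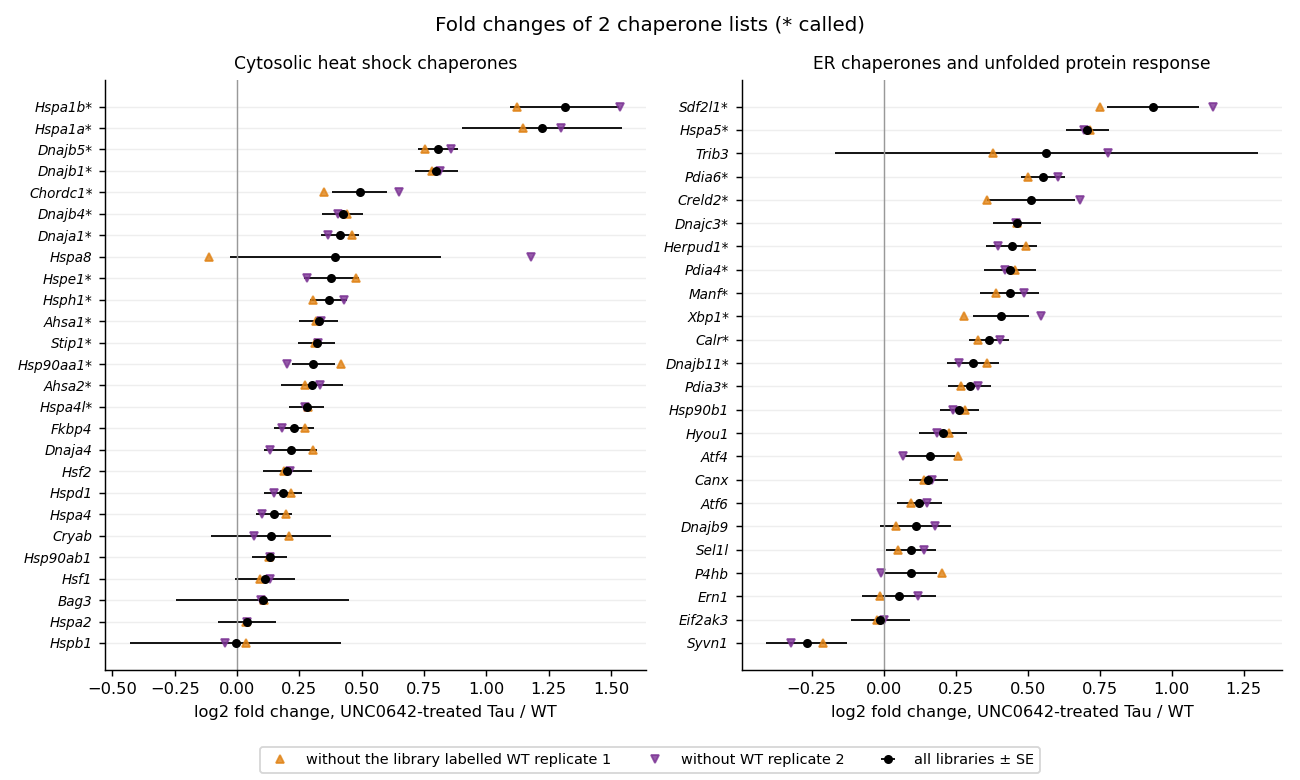
Log2 fold change of UNC0642-treated Tau over WT for each tested gene of the cytosolic heat shock chaperone list (left) and of the ER chaperone and unfolded protein response list (right). Black points are the fit of all libraries with its SE, triangles the fits without the library labelled WT replicate 1 or without WT replicate 2, and an asterisk marks a called gene. All 14 and 12 called genes lie to the right of 0.

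Of 18 tested genes that respond to glucocorticoids, 11 were called higher, 8 of them stably, and 0 lower (median log2 difference 0.53). The shares over all autosomal genes were 3.81% and 5.75%. Fkbp5, which feeds back on the glucocorticoid receptor, was at 22.3 and 24.96 CPM in WT, 40.3 and 35.3 with vehicle and 33.2 and 38.2 with UNC0642 (log2 0.59 ± 0.12 SE against WT). The kinase gene Sgk1 was at 67.2 and 64.5 CPM in WT, 117 and 207 with vehicle and 115 and 142 with UNC0642, and Plin4, of a lipid droplet protein, at 3.31 and 3.71 CPM in WT, 12.1 and 22.2 with vehicle and 7.70 and 13.4 with UNC0642. In all 3 genes the mean of the vehicle-treated Tau libraries was farther from WT than that of the UNC0642-treated ones, and for Plin4 the UNC0642-treated libraries were called lower than those given vehicle. The kinase inhibitor Cdkn1a was of another kind, at 9.26 and 5.16 CPM in WT, 10.1 and 8.30 with vehicle and 14.9 and 13.98 with UNC0642. The receptor gene itself, Nr3c1, did not pass the test, at 204 and 222 CPM in WT and 246 and 244 with UNC0642. With vehicle, 12 of the 18 were called higher than WT, against 3.74% of all autosomal genes. Between UNC0642 and vehicle Cdkn1a was called higher, and Plin4 and the metallothionein genes Mt1 and Mt2 lower. Of the 16 genes of this list with a RefSeq promoter, the glucocorticoid response element GNACANNNTGTNC (in 0.387% of all promoters) was within 250 bases before the start of 3, Sgk1 and Map3k6, which were called higher, and Mt1, which was not. Of all 16, 10 were called higher.

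Klf9, a zinc finger factor induced by both glucocorticoids and thyroid hormone, was at 169 and 168 CPM in WT, 232 and 238 with vehicle and 246 and 242 with UNC0642 (log2 0.53 ± 0.069 SE, adjusted p = 0.0152). Dio2, the deiodinase that makes active thyroid hormone in glia, was at 126 and 137 CPM in WT, 155 and 151 with vehicle and 204 and 211 with UNC0642 (log2 0.66 ± 0.076 SE, adjusted p = 0.00805). For Klf9 the vehicle group was close to the UNC0642 group, whereas for Dio2 it was nearer to WT. These were the 2 genes called higher among 13 tested for thyroid hormone conversion, transport and response, and both were stable. Aldh1a1, an enzyme of retinoic acid synthesis, was the 1 called lower, at 34.8 and 41.4 CPM in WT and 31.7 and 27.7 with UNC0642. It was not a stable call.

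Genes of the circadian clock were called in both directions. The output factor Dbp was at 35.05 and 39.7 CPM in WT, 45.9 and 40.6 with vehicle and 17.5 and 22.9 with UNC0642, a log2 difference from WT of -0.88 ± 0.14 (SE, adjusted p = 0.0450). The repressor Nr1d1 (REV-ERBα) was at 38.3 and 44.1 CPM in WT, 46.3 and 36.1 with vehicle and 24.3 and 23.1 with UNC0642 (log2 -0.80 ± 0.13 SE, adjusted p = 0.0528). The vehicle-treated Tau libraries lay above both WT libraries for Dbp and overlapped with them for Nr1d1, and the UNC0642-treated ones were below all others for both genes. Arntl, which encodes BMAL1 and is repressed by REV-ERBα, was called higher, at 40.3 and 40.03 CPM in WT, 35.1 and 34.2 with vehicle and 54.7 and 46.1 with UNC0642, although not as a stable call. Per2 was at 20.4 and 31.8 CPM in WT, 56.5 and 61.5 with vehicle and 40.3 and 38.8 with UNC0642, and Bhlhe40 at 96.1 and 105 CPM in WT, 182 and 152 with vehicle and 150.5 and 178 with UNC0642, higher in both Tau groups than in WT. Cry1 and Nfil3 were also called higher. In all, 5 of 21 tested clock genes were higher and 2 lower, against 3.81% and 5.75% of all autosomal genes. Of these clock genes 2 and 2 were stable calls. In vehicle-treated Tau mice 6 were called higher than WT and 0 lower, and between UNC0642 and vehicle 2 were called higher (Arntl and Nfil3) and 7 lower (Dbp, Nr1d1, Nr1d2, Per1, Per2, Ciart and Bhlhe41). Per1, Per3, Cry2, Clock, Rora and Nr1d2 did not pass the test. The hour of dissection is not given in the sources used here.

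The remaining leading genes that were higher had varied roles. Zfp189, of a zinc finger protein, was at 14.2 and 12.2 CPM in WT, 26.9 and 25.1 with vehicle and 33.8 and 34.01 with UNC0642 (log2 1.37 ± 0.12 SE, adjusted p = 0.00180). P4ha1, a subunit of the prolyl hydroxylase that modifies collagens in the ER, was at 53.9 and 61.3 CPM in WT, 84.5 and 94.1 with vehicle and 104 and 105 with UNC0642. Trib2, a pseudokinase, was at 47.7 and 51.95 CPM in WT, 85.6 and 82.3 with vehicle and 80.2 and 89.1 with UNC0642, with both Tau groups alike in their distance from WT. The syntrophin Sntb2, the prohormone convertase Pcsk1, the kinase Dyrk3 and Gfod1 had log2 differences from 0.66 for Pcsk1 to 0.86 for Dyrk3, each with an adjusted p under 0.05 and as a stable call. Etnppl, an astrocyte enzyme that breaks down phosphoethanolamine, was at 4.69 and 4.65 CPM in WT, 2.54 and 2.86 with vehicle and 11.5 and 11.03 with UNC0642 (log2 1.27 ± 0.18 SE against WT, adjusted p = 0.0294). Here the vehicle-treated Tau mice were below WT and the UNC0642-treated mice above it, and no library of 1 group reached another. Kcnk1, a leak potassium channel, was at 51.6 and 51.3 CPM in WT, 74.5 and 84.7 with vehicle and 74.7 and 78.2 with UNC0642, with both Tau groups above WT. Among the other genes with an adjusted p under 0.05 were Nab2, a corepressor of Egr proteins, with a log2 difference of 0.78, the cAMP-responsive factor Crem with 0.79, the insulin receptor substrate Irs2 with 0.84, the zinc finger factor Klf10 with 0.70, Sertad1 with 0.95, Tiparp with 0.80, Tent5a with 0.97 and Nostrin with 1.36. Of all 42 genes, 20 were in a list examined here, 8 of them immediate early genes.

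Eno1, the glycolytic enzyme enolase, was at 77.5 and 66.5 CPM in WT, 80.5 and 74.1 with vehicle and 127 and 124 with UNC0642 (log2 0.80 ± 0.094 SE, adjusted p = 0.00857). It shares 70.5% of the 50-base words of its transcript with Eno1b, a near-identical gene that was called lower, at 82.3 and 68.8 CPM in WT and 59.4 in each UNC0642-treated library. Summed over both copies the levels were 159.7 and 135 CPM in WT, 164 and 157 with vehicle and 187 and 183 with UNC0642, a ratio of 1.25 between treated and WT means, smaller than the 1.74 of Eno1 alone. How the reads were divided between the copies was not tested. In the list of hypoxia-inducible and glycolytic genes, 5 of 25 were higher and 0 lower (3.81% and 5.75% of all autosomal genes). Pfkfb3, a regulator of glycolysis, was at 31.1 and 29.4 CPM in WT, 47.8 and 41.6 with vehicle and 46.7 and 44.02 with UNC0642 and with Eno1 the only stable call. Vegfa, Hif1a, Hk2 and Pgam1 did not pass the test.

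Of 5370 genes not annotated as protein-coding, 93 (1.73%) were higher and 199 (3.71%) lower, and of 14179 protein-coding genes 651 (4.59%) and 926 (6.53%), a difference that was not tested. The 3 with the smallest p-values in each direction include several that share sequence with a coding gene. The pseudogene Gm6166, at 9.89 and 9.49 CPM in WT, 19.7 and 23.9 with vehicle and 18.1 and 20.5 with UNC0642, shares 51.1% of its words with Fabp5, and over both genes the ratio of treated to WT means was 1.08. Gm14292, a pseudogene at 14.5 and 14.5 CPM in WT and 7.82 and 8.43 with UNC0642, shares 69.5% with Wtap, which was called higher, and the summed ratio was 1.09. Gm8355, at 69.9 and 63.6 CPM in WT and 84.1 and 94.2 with UNC0642, shares 57.0% with Hspa8. Zswim6, annotated as a processed transcript, was at 35.2 and 30.3 CPM in WT and 44.5 and 46.1 with UNC0642. Gm23935, a short gene annotated as a miRNA, all of whose words lie in Gm24245 too, was at 1717 and 2477 CPM in WT and 1226 and 1303 with UNC0642, and Gm45566 at 0.710 and 0.976 CPM in WT and 0.0592 and 0 with UNC0642, in the treated libraries under the floor of 3 counts (0.117 to 0.178 CPM in the WT and UNC0642-treated libraries).

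Among the genes that were lower, Casp9, the initiator caspase of the mitochondrial pathway of apoptosis, had the smallest p-value. It was at 71.99 and 74.2 CPM in WT, 74.3 and 64.3 with vehicle and 42.98 and 42.7 with UNC0642, a 1.71-fold higher level in WT (log2 -0.77 ± 0.095 SE, adjusted p = 0.0103). The vehicle-treated libraries overlapped with WT. Dnah8, of an axonemal dynein heavy chain, was at 5.68 and 4.26 CPM in WT, 3.90 and 3.84 with vehicle and 0.711 and 1.15 with UNC0642 (log2 -2.38 ± 0.32 SE, adjusted p = 0.0193), the largest difference among the 24 leading genes. Glo1, glyoxalase 1, was at 83.02 and 75.9 CPM in WT, 82.5 and 78.5 with vehicle and 51.1 and 57.5 with UNC0642 (log2 -0.55 ± 0.094 SE, adjusted p = 0.0543). These genes overlap on opposite strands: Glo1, with the minus strand as its sense, lies on chromosome 17 from 30584936 to 30626871, and Dnah8, on the plus strand, lies on chromosome 17 from 30624354 to 30877365 (GRCm38). The libraries were stranded, but the strand setting of the counting is not given in the sources used here, so that reads of the overlap may be shared. The region is known to be duplicated in some laboratory mouse strains, and the copy number in these mice was not measured. In a list of 17 genes with known variants between such strains, Glo1 was lower and Wdfy1 and Gabra2 were higher. Wdfy1 was at 40.1 and 39.5 CPM in WT, 39.4 and 41.6 with vehicle and 43.3 and 65.9 with UNC0642, so that 1 treated library stood apart. Btbd9, next to Glo1, was at 118 and 130.3 CPM in WT, 136 and 127 with vehicle and 108 and 116 with UNC0642, and was not called.

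Further genes separated the UNC0642-treated libraries from both other groups. Gigyf1, of a translation repressor, was at 23.9 and 25.8 CPM in WT, 22.9 and 22.7 with vehicle and 14.98 and 16.4 with UNC0642. Bace2, a protease related to the β-secretase of the amyloid precursor, was at 7.06 and 5.90 CPM in WT, 5.22 and 5.15 with vehicle and 2.78 and 2.65 with UNC0642. In others both Tau groups lay below WT. Ankrd34c was at 23.1 and 23.04 CPM in WT, 14.9 and 14.9 with vehicle and 14.6 and 14.03 with UNC0642, and the zinc finger gene Zfp810 at 32.1 and 28.2 CPM in WT, 19.9 and 18.8 with vehicle and 18.6 and 19.1 with UNC0642. Rsrp1, of an arginine and serine-rich protein, was at 223 and 237 CPM in WT, 171 and 185 with vehicle and 164 and 168 with UNC0642 (log2 -0.47 ± 0.077 SE against WT, adjusted p = 0.0490). Rgs11, a regulator of G protein signalling, was at 22.6 and 23.4 CPM in WT, 16.7 and 17.5 with vehicle and 14.4 and 15.1 with UNC0642. Shank1, a scaffold of the postsynaptic density, was at 148 and 149 CPM in WT, 121 and 94.8 with vehicle and 96.6 and 80.3 with UNC0642 (log2 -0.75 ± 0.12 SE, adjusted p = 0.0480). Vehicle and treated libraries overlapped for Shank1. All 24 leading genes, chosen for their small p-values in the fit of all libraries, were stable calls.

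**Figure D4:**
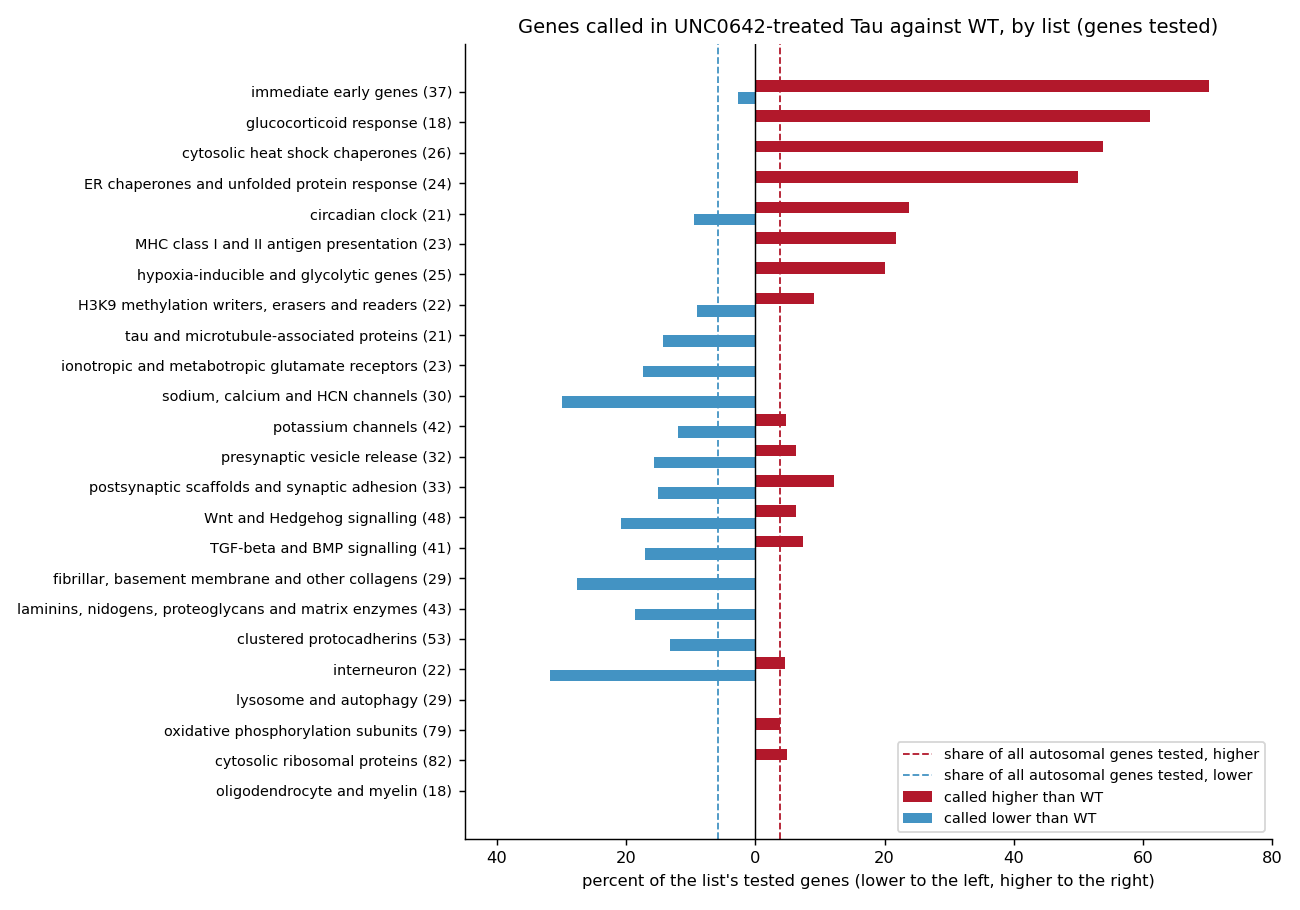
Percent of the tested genes of 24 lists that were called higher (red, to the right) or lower (blue, to the left) in UNC0642-treated Tau than in WT mice, with the number tested in brackets. Dashed lines are the shares over all autosomal genes tested, 3.81% and 5.75%. Immediate early genes reach 70.3% higher, sodium, calcium and HCN channels 30.0% lower and interneuron markers 31.8% lower.

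Most channel and synaptic genes were not called, and calls of ion channels and glutamate receptors were mostly in the lower direction. Of 30 sodium, calcium and HCN channel genes, 9 were lower (5.75% of all autosomal genes were) and 0 higher, 5 of them as stable calls, and 11 and 7 were lower without the library labelled WT replicate 1 and without WT replicate 2. They were calcium and HCN channel genes alone. Cacna1a, of the P/Q-type channel that triggers transmitter release, was at 131 and 157 CPM in WT, 136 and 108 with vehicle and 109 and 89.5 with UNC0642 (log2 -0.54 ± 0.13 SE, adjusted p = 0.165). Cacna1c, of an L-type channel, was at 106 and 110.1 CPM in WT, 102 and 81.9 with vehicle and 81.2 and 77.7 with UNC0642, and Hcn2, of a pacemaker channel, at 73.4 and 81.3 CPM in WT, 68.7 and 72.3 with vehicle and 58.2 and 58.4 with UNC0642. Vehicle-treated library 2 was nearer to the UNC0642-treated level than library 1 for both calcium channel genes. That library also stood apart in markers of striatal neurons and myelin, given with the cell types below. Of 23 glutamate receptor genes, 4 were lower and 0 higher. Grm2, a presynaptic metabotropic receptor, was at 51.2 and 64.6 CPM in WT and 36.9 and 35.9 with UNC0642, and the kainate receptor subunit Grik3 at 159 and 145 CPM in WT and 115 and 112 with UNC0642. Grik5, another subunit, was at 98.4 and 105 CPM in WT and 72.5 and 66.03 with UNC0642. None of the AMPA or NMDA receptor subunits on the list was called.

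Postsynaptic scaffolds and adhesion proteins split, with 4 of 33 higher and 5 lower (3.81% and 5.75% of all autosomal genes). Higher were Homer1, Nptx2, Cbln2 and Lrrtm2, all stable. Cbln2, a secreted organizer of synapses, was at 72.5 and 72.2 CPM in WT, 88.99 and 67.1 with vehicle and 112 and 114 with UNC0642. Besides Shank1, Nlgn2 was a stable lower call, at 128 and 165 CPM in WT, 141 and 103 with vehicle and 104 and 86.4 with UNC0642, and Nrxn2 was lower without being stable. For Cbln1 the call was lost without the library labelled WT replicate 1, in which it was at 9.11 CPM against 3.05 in the other WT library and 1.66 and 2.38 with UNC0642. Without that library 10 members were called lower in place of 5. Of 32 presynaptic genes 2 were higher and 5 lower with 0 stable calls, and of 42 potassium channel genes 2 were higher and 5 lower, with Kcnc1, of a fast delayed rectifier, among the 3 stable lower calls. Without WT replicate 2, 1 presynaptic gene was lower in place of 5.

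Among matrix and developmental signalling genes most were not called, and most of the lower calls were lost in a fit without 1 library. The shares over all autosomal genes tested were 3.81% higher and 5.75% lower. Of 29 collagen genes 8 were lower and 0 higher, with 2 stable calls, and 6 and 13 were lower without the library labelled WT replicate 1 and without WT replicate 2. Col6a1 was at 55.9 and 61.1 CPM in WT, 37.9 and 39.6 with vehicle and 38.8 and 42.7 with UNC0642 (log2 -0.52 ± 0.10 SE, adjusted p = 0.0741), with both Tau groups alike. Col12a1, the other stable call, was at 47.4 and 37.7 CPM in WT, 26.1 and 22.2 with vehicle and 32.03 and 20.8 with UNC0642. Of 43 laminin, proteoglycan and matrix enzyme genes 8 were lower, but 2 without the library labelled WT replicate 1, and only Mmp15 was stable. Of 48 genes of Wnt and Hedgehog signalling 10 were lower and 3 higher, with 2 and 1 stable. Hhipl1 was at 30.7 and 28.5 CPM in WT, 13.1 and 12.02 with vehicle and 20.4 and 19.7 with UNC0642, and the Wnt antagonist Frzb at 38.7 and 47.5 CPM in WT, 18.2 and 15.2 with vehicle and 30.2 and 33.3 with UNC0642, so that for both the treated libraries lay between the other groups. Wnt10a was the stable higher call, at 8.40 and 7.93 CPM in WT and 12.4 and 11.5 with UNC0642. Genes of TGF-beta and BMP signalling numbered 3 higher and 7 lower of 41, with Ltbp3 the only stable call, at 10.4 and 11.1 CPM in WT, 6.58 and 5.84 with vehicle and 7.46 and 5.96 with UNC0642, and clustered protocadherins 0 higher and 7 lower of 53 with 0 stable.

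The median GC content of the genes that were lower was above that of all genes. Over protein-coding autosomal genes the median GC content of the longest transcript was 54.05% in those called lower, 47.88% in those called higher and 49.95% in all tested, and median lengths were 4188, 3247 and 3459 bases. Of 10 equal groups of genes by GC content, in that with the lowest 8.11% were called higher and 2.12% lower, and in that with the highest 2.75% and 14.5%. An alternative fit, added once the values had been seen, gave each library an offset for GC content, and in it 864 genes were higher and 930 lower. All 24 leading genes remained called the same way, but they had been chosen for their small p-values in the fit without the offset. In this fit 28 immediate early genes were called higher, and 4 glutamate receptor genes, 7 sodium, calcium or HCN channel genes and 7 collagen genes lower. The part of GC content in the lower genes was otherwise not tested. On single chromosomes the share called higher ran from 2.44% on chromosome 9 to 6.09% on chromosome 4, and the share called lower from 3.31% on chromosome 13 to 7.14% on chromosome 18.

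**Figure D5:**
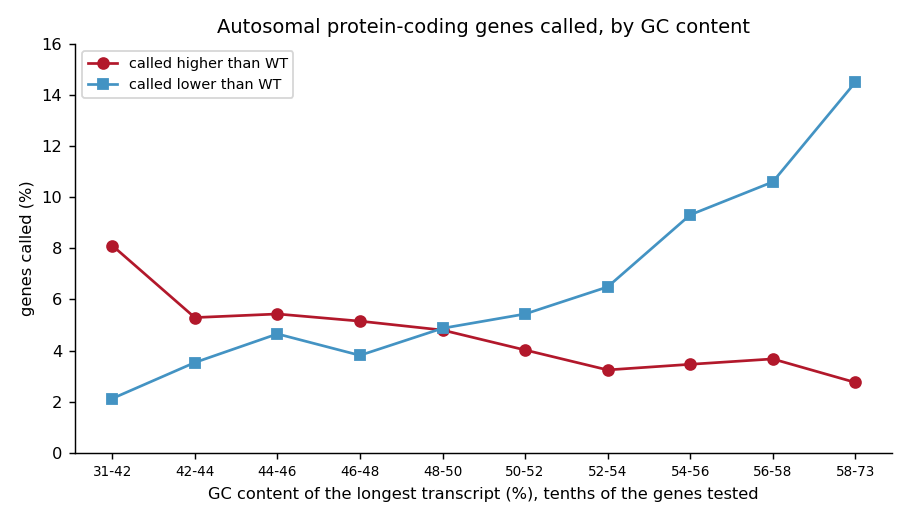
Percent of autosomal protein-coding genes called higher (red) or lower (blue) in UNC0642-treated Tau than in WT mice, in 10 equal groups of the tested genes by the GC content of their longest transcript (horizontal axis, percent). The share called lower goes from 2.12% to 14.5% and that called higher from 8.11% to 2.75%.

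Few immune genes were stable calls. Over all autosomal genes tested, 3.81% were called higher and 5.75% lower. Of 23 MHC genes 5 were higher and 0 lower, but 1 was a stable call: H2-D1, of a class I heavy chain, at 23.3 and 15.1 CPM in WT, 17.7 and 21.8 with vehicle and 30.4 and 33.3 with UNC0642. B2m, the light chain, was at 36.98 and 39.2 CPM in WT, 50.8 and 51.3 with vehicle and 45.5 and 55.9 with UNC0642. MHC genes are close in sequence, and 14.3% of the words of H2-D1 are also in other genes. The number called higher was 2 without WT replicate 2. Of 20 complement genes 2 were higher and 1 lower, the former being C1qb and C1qc, subunits made by microglia, of which C1qc was stable at 21.01 and 16.9 CPM in WT and 28.8 and 25.7 with UNC0642. Of 27 interferon response genes 1 was higher and 2 lower, with 0 stable.

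Among the 22 genes that write, erase or read H3K9 methylation, 2 were higher and 2 lower (9.09% each way). Of all autosomal genes tested, 3.81% were higher and 5.75% lower. Kdm3a, a demethylase of H3K9, was at 66.2 and 67.7 CPM in WT, 75.5 and 82.2 with vehicle and 88.5 and 84.9 with UNC0642, and Kdm7a, another demethylase, at 109.8 and 139 CPM in WT, 155 and 151 with vehicle and 172 and 159 with UNC0642. Wiz, a zinc finger partner of EHMT1 and EHMT2, was lower at 13.8 and 15.8 CPM in WT, 13.8 and 10.5 with vehicle and 8.94 and 8.34 with UNC0642, and Atf7ip, a cofactor of the methyltransferase SETDB1, at 88.3 and 92.9 CPM in WT, 85.5 and 85.99 with vehicle and 72.2 and 70.2 with UNC0642. All but Kdm7a were stable calls. Of 21 genes for tau and other microtubule-associated proteins 3 were lower and 0 higher, with Mapre3 the only stable call, and of 25 tau kinases and their activators Sgk1 was higher as a stable call and Mark2 and Mark4 lower. The lower calls depended on the WT library, with 5 in this list without the library labelled WT replicate 1 and 0 without WT replicate 2. Of 27 genes of amyloid processing and Alzheimer risk 1 was higher and 0 lower, with 0 stable calls. This list held Bace1 but not Bace2, which was among the leading lower genes.

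Several large gene sets had few called genes with all libraries. No gene of 29 for lysosome and autophagy or of 30 for antioxidants and metallothioneins was called by edgeR's test with all libraries. Of 82 cytosolic ribosomal protein genes 4 were higher, among them Rps2, whose value came from 1 library, at 2.43 and 22.01 CPM with UNC0642, and which shares 71.3% of its words with other genes. Of 79 oxidative phosphorylation genes 3 were higher and of 37 proteasome genes 1, but without the library labelled WT replicate 1 these were 11 and 11 (4.24% of all autosomal genes were called higher in that fit), and without WT replicate 2 they were 2 and 0. Antioxidant genes had 3 called higher without the former library and 2 without the latter. Both UNC0642-treated libraries lay above both WT libraries for 45 of the 79 oxidative phosphorylation genes, 20 of the 37 proteasome genes and 16 of the 30 antioxidant genes, and for 22% of all autosomal genes tested. The median log2 differences of the oxidative phosphorylation and proteasome lists were 0.12 and 0.14 with all libraries and 0.17 and 0.23 without it.

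Cell type markers were compared to show where tissue composition moved with these results. In bulk tissue, fewer cells of a type and less RNA per cell cannot be told apart. No marker of 18 for oligodendrocytes and myelin was called, and on average over the list log2 CPM was 5.55 and 4.75 in WT and 5.06 and 5.19 with UNC0642. With vehicle it was 5.15 and 6.33. The striatal neuron list averaged 3.755 and 3.68 in WT, 3.90 and 4.75 with vehicle and 3.55 and 3.62 with UNC0642. Vehicle-treated library 2 was above every other library in both lists. With vehicle, 9 of 18 myelin and 11 of 19 striatal markers were called higher than WT, against 3.74% of all autosomal genes. The part of this library in the vehicle values given above was not tested. Of 20 astrocyte markers 2 were higher and 2 lower (1 and 1 without the library labelled WT replicate 1), of 20 microglial markers 2 and 2 (3 and 2), and of 19 markers of striatal neurons 0 and 0 (0 and 1). Choroid plexus markers numbered 1 higher and 1 lower of 6, and ependymal and erythroid markers 0 and 1 of 6 and 0 and 0 of 7. Excitatory neuron and layer markers numbered 4 higher and 1 lower of 20, of which 3 and 0 were stable, with 3 higher and 5 lower without the library labelled WT replicate 1 and 6 higher and 0 lower without WT replicate 2. Slc17a7, a vesicular glutamate transporter of cortical neurons, was at 932 and 969.6 CPM in WT and 870.4 and 846 with UNC0642, and was not called. The VEGF receptor gene Kdr, of endothelial cells, was a stable lower call at 13.9 and 16.6 CPM in WT, 9.65 and 8.02 with vehicle and 7.70 and 9.84 with UNC0642. Myh11, the myosin of smooth muscle, was another, at 7.45 and 8.05 CPM in WT, 5.36 and 6.47 with vehicle and 3.91 and 4.46 with UNC0642. In the same lists Slc2a1 and Mfsd2a, of endothelial cells, and Kcnj8, of mural cells, were called higher. Stable calls were 1 higher and 1 lower among endothelial markers, and 0 higher and 1 lower among mural markers. Endothelial markers were 2 higher and 4 lower of 17 (1 and 2 without the library labelled WT replicate 1), mural markers 1 and 3 of 12 (1 and 3) and meningeal fibroblast markers 0 and 3 of 22, and the meningeal list had 8 lower without the library labelled WT replicate 1. Mean log2 CPM of the meningeal list was 2.57 and 3.14 in WT, 2.56 and 2.03 with vehicle and 2.53 and 2.56 with UNC0642. The part of these cell types in the lower collagen and matrix genes was not tested.

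Interneuron markers made up 7 of the lower calls (of 22 tested) and 1 of the higher, but the lower calls rested on 1 library. Calb2 was at 68.8 CPM in the library labelled WT replicate 1, 10.4 in WT replicate 2 and 12.8 and 9.62 with UNC0642. Dlx1 was at 41.2 and 22.6 CPM in WT and 20.9 and 21.4 with UNC0642. Gad1 was not called, at 449 and 266 CPM in WT and 301 and 300.0 with UNC0642. Without the library labelled WT replicate 1, 0 interneuron markers were called lower, and without WT replicate 2 there were 8. The neuropeptides Trh, at 16.8 and 0.586 CPM in WT and 0.947 and 1.32 with UNC0642, and Nmb, at 6.07 and 0.391 CPM in WT and 0.888 and 0.485 with UNC0642, followed the same library. Of 39 neuropeptide and receptor genes 4 were higher and 3 lower. The melanocortin receptor Mc4r was a stable higher call, at 1.26 and 2.11 CPM in WT, 5.51 and 3.89 with vehicle and 3.55 and 4.54 with UNC0642, and the neurotensin receptor Ntsr1 a stable lower call, at 5.24 and 5.70 CPM in WT, 6.01 and 4.58 with vehicle and 3.20 and 2.65 with UNC0642.

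In the remaining lists single genes stood out. Of 14 tubulin genes 3 were higher and 2 lower, and Tuba1c was a stable call at 2.48 and 2.27 CPM in WT, 3.11 and 2.98 with vehicle and 6.16 and 5.73 with UNC0642. It shares 61.0% of its words with other genes. Of 31 genes of the cell cycle and DNA replication 4 were higher and 1 lower, with Cdkn1a and the cyclin gene Ccnd2 as stable calls. Ccnd2 was at 67.1 and 79.7 CPM in WT, 121 and 109.5 with vehicle and 113 and 105 with UNC0642, with both Tau groups above WT. Of 49 replication-dependent histone genes 5 were higher and 1 lower, of 32 splicing factors and kinases 1 and 3, of 25 genes of cholesterol synthesis 3 and 3, of 13 GABA receptor genes 1 and 0, of 29 receptors for monoamines and acetylcholine 2 and 1, of 22 long noncoding RNAs 1 and 1, of 37 imprinted genes 0 and 2, of 69 pseudogenes of ribosomal protein genes 0 and 2, and of 12 markers of oligodendrocyte progenitors 0 and 1. Stable among these were Msmo1, Hist1h1b and Hist1h4n, which were higher, and Hnrnpdl and Rps2-ps10, which were lower. Hist1h4n shares 85.6% of its words with other genes and Rps2-ps10 96.3%. Over all autosomal genes tested 3.81% were called higher and 5.75% lower. Imprinted genes (0% and 5.4%) and long noncoding RNAs (4.5% each way) were near or under these shares. Histone genes were above the share of higher calls (10.2%), and cholesterol synthesis genes above both (12% each way).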

How the data were processed

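Strand-specific libraries of total RNA depleted of ribosomal RNA were sequenced from the PFC of 2 WT, 2 P301S Tau and 2 UNC0642-treated P301S Tau mice. Per the labels and methods, the authors trimmed reads with Cutadapt, aligned them with TopHat2 and deposited raw counts per gene symbol from featureCounts (build mm10, versions not given in the sources used here). Gene types and positions were taken from GENCODE M21 by symbol, where 53669 of 54429 symbols had 1 locus. In 2 files 26 gene names each had been turned into dates by a spreadsheet and were restored from the other files, whose rows are in the same order.

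Counts were tested in edgeR 4.0.16 (R 4.3.3, quasi-likelihood test, TMM scaling, genes kept by filterByExpr with a minimum count of 10), with all 6 libraries in 1 fit and a mean per group, leaving 3 residual degrees of freedom, and p-values were adjusted by Benjamini-Hochberg over 20409 genes. The biological coefficient of variation was 12.31%. The scripts were tested on simulated data. Values in CPM use TMM-scaled library sizes, in which 3 counts are 0.107 to 0.178 CPM. Shared sequence was measured as the percent of a transcript's 50-base words found in other genes, and promoters were read from RefSeq.

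Named genes were the 12 protein-coding genes with the smallest p-values in each direction, the 25 genes with the smallest p-values among those with an adjusted p under 0.05, 3 genes of other types in each direction, up to 4 called members of each list, markers, and checks of target, transgene and sex. Other list members, Eno1b, Wtap, Fabp5, Hspa8, Btbd9 and the remaining genes with an adjusted p under 0.05 were named after their values were seen. The members and lists were chosen with earlier results of these data known, so no list was tested. Same-numbered replicates did not deviate together (correlations of -0.046, -0.025 and -0.0029).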

Additional observations from a re-analysis of the deposited data

How the results depend on the processing

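Among 186 named genes, alternatives were counted as the same in 2175 comparisons. A gene called in neither fit counted as the same even where its sign changed. The call was lost in 238 comparisons and gained in 2, and the sign was counted as reversed in 3. Without 1 library, the log2 difference ranged from -2.63 to 0.099 for Calb2 and from -3.86 to 0.96 for Trh. Both were above 0 without the library labelled WT replicate 1. For Rps2 it ranged from -0.15 to 3.03 (below 0 without UNC0642 replicate 2). Medians of the 54 lists were counted as moved in 80 of 432 comparisons. The limit was the pooled standard deviation of the list's mean log2 CPM within the WT and UNC0642-treated groups. It is wider where the 2 libraries of a group differ. Without 1 library, the numbers of genes higher ran from 563 to 966, lower from 923 to 1178, and with an adjusted p under 0.05 from 6 to 179. A fold limit of 1.5 left 199 higher and 560 lower genes, by its construction, and no fold limit 1151 higher and 1226 lower ones. The DESeq2 Wald test called 634 genes higher, 714 lower (47.0% of calls higher, against 39.8% by edgeR's test) and 262 at an adjusted p under 0.05. Without a filter on low counts 705 genes had an adjusted p under 0.05, and with the offset for GC content, chosen after the data were seen, 67. The causes were not tested. With the replicate number as a block there were 709 genes higher, 985 lower and 21 with an adjusted p under 0.05, but the replicates share a number alone. With 2 libraries a group and a floor of 3 counts, small differences and genes near the floor are not resolved.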
